A study of Mus musculus with 15 samples.

Results

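Gene expression in RAW264.7, a mouse line that behaves like a macrophage, was compared between cells exposed to 10 µg of LCCL for 24 h and untreated cells. LCCL is the agent that the series title describes as a peptide with an LCCL core motif. The comparison took 6 of the 15 libraries of the series, 3 of untreated cells and 3 of cells given 10 µg for 24 h. Its members were all genes that passed a low-count filter, 12401 of the 25639 symbols in the table. The other 9 libraries, 3 a group, came from cells exposed for 6 h to either dose, 1 µg or 10 µg, and from cells exposed to 1 µg until 24 h. All cells were of the same line and labelled wild type, and every library carried 1 batch label. Per the labels the doses have no volume, there is no vehicle group, and when the untreated cells were harvested is not stated, so LCCL, vehicle and time in culture cannot be told apart. Nor do they say that the 3 libraries of a group were separate cultures, so a p-value here reflects the spread from library to library alone, which could be technical. In bulk RNA, fewer cells that use a gene and less of its RNA per cell cannot be told apart either.

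Macrophages adjust growth, metabolism and defence genes to their surroundings. When amino acids run short or the kinases of the integrated stress response are active, the transcription factor ATF4 switches on amino acid transporters, synthetic enzymes and tRNA synthetases while general translation is held back. Factors of the TFEB family raise lysosomal and autophagy genes, E2F factors drive the genes of DNA replication, SMAD proteins pass signals of the TGF-beta and BMP family to the Id genes, and interferon acts through STAT and IRF factors on antiviral genes.

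Levels are given in CPM, read counts relative to library size after TMM scaling. Changes are fitted log2 fold changes ± SE of the 10 µg 24 h libraries over the untreated ones. All adjusted p-values come from edgeR's quasi-likelihood test with Benjamini-Hochberg adjustment, and rose or fell is written of genes where it was under 0.05. Group levels are means ± SD over n = 3 libraries. The 6 libraries held 19085148 to 22434642 counts, mitochondrially encoded transcripts took 5.82% to 6.23% of them, and no library stood apart from its group.

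Most of the measured genes differed, and most differences were small. At an adjusted p under 0.05, 4388 genes were higher (35.4% of those tested) and 4329 lower (34.9%), 8717 in all (70.3%). Of these, 4041 changed by less than 0.5 on the log2 scale (46.4%), and the median size was 0.54. A change of at least 2-fold was found in 1126 genes that rose (9.08%) and 639 that fell (5.15%), 14.2% together, and one of at least 4-fold in 288 and 72. The median log2 fold change of all genes was 0.01 with TMM scaling and 0.12 with upper-quartile scaling. Upper-quartile scaling gave 5327 genes higher and 3409 lower, so the balance of small rises and falls depends on the scaling. A share of called members near 35% in either direction is therefore the background, and each list below is read against it. Where the libraries of the groups are said to lie apart, this describes the gene alone. The share of all genes with such a gap is not given here.

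**Figure D1:**
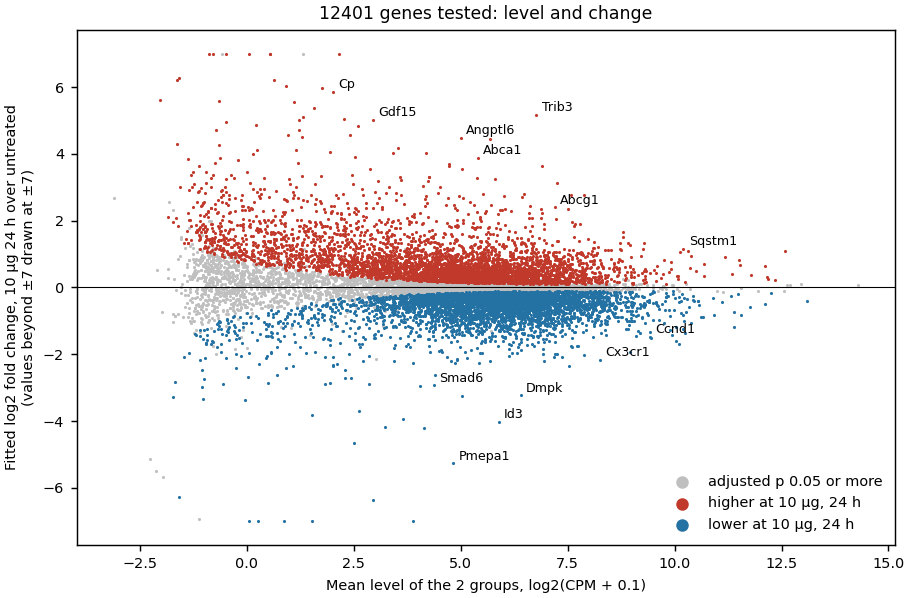
Fitted log2 fold change of each of the 12401 genes (vertical) against its mean level in the 2 groups on a log2 scale (horizontal). Red points rose and blue points fell at an adjusted p under 0.05, and grey points did not pass; the changes spread on both sides of 0 at every level, with Trib3 at 5.18 and Pmepa1 at -5.26 among the widest at high levels.

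The largest rises included genes of amino acid stress, lipid handling and surface or secreted proteins. Trib3, a pseudokinase gene induced by ATF4, stood at 5.76, 6.57 and 5.22 CPM in the untreated libraries and at 178, 226 and 232 CPM in the treated ones (5.18 ± 0.23, adjusted p = 2.68e-09). Gdf15, which encodes a stress-induced cytokine, went from 0.537, 0.365 and 0.447 CPM to 14.1, 16.1 and 13.9 CPM (5.02 ± 0.18, adjusted p = 1.39e-17). Genes were ranked for rise or fall only if treated and untreated libraries did not overlap, so such gaps were set by the choice. Cth, whose enzyme makes cysteine from cystathionine, rose from 1.20 ± 0.421 to 21.9 ± 4.30 CPM. Soat2, the gene of an enzyme that esterifies cholesterol for storage, was at 4.44, 4.29 and 4.87 CPM and then at 97.9, 101 and 96.1 CPM (4.44 ± 0.10, adjusted p = 1.16e-20).

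Several of the genes that rose most were almost silent in untreated cells. Cp, the gene of the copper ferroxidase ceruloplasmin, rose from 0.126 ± 0.0687 to 7.71 ± 1.58 CPM, Extl1, of the exostosin glycosyltransferase family, from 0.0958 ± 0.0485 to 6.40 ± 0.653 CPM, and Fbln5, of the matrix protein fibulin 5, from 0.274 ± 0.0842 to 9.23 ± 0.537 CPM. Itgad, an integrin alpha chain of leukocytes, went from 0.129 ± 0.0578 to 5.60 ± 1.35 CPM and Bach2, a transcriptional repressor of lymphocytes, from 0.415 ± 0.0362 to 10.0 ± 2.48 CPM. Cox6a2, a heart and muscle subunit of cytochrome c oxidase, had 2 counts in the untreated libraries together and 530 in the treated ones, a ratio of 270 with an exact 95% Poisson interval of 74.5 to 2239 that covers counting error only. Rora, a nuclear receptor gene, changed by 4.06 ± 0.29, Angptl6, a secreted angiopoietin-like protein gene, by 4.49 ± 0.28, Glrp1 by 4.03 ± 0.15 and Zrsr1 by 4.83 ± 0.67. Cox6a2 and Itgad share exon sequence on opposite strands, as do Zrsr1 and Commd1, and Cp and Hps3. The strand setting of the counting is not given, so reads from such neighbours cannot be told apart. Among genes named below, the same holds of Hk3, Slc6a9, Ppp1r15a, Cct6a, Pdia3, Pltp, Acsl5, Idi1, Ftl1, Slc11a2, Ccna2, Ccnd1, Ccne2, Chaf1a, Dkc1 and Rpl12. It also holds of Hnrnpab, Srsf2, Ptbp1, Psmd1, Psmd13, Mrpl18, Mrpl19, Mrpl49, Junb, Irak2, Irf5, Rfxank, Spred3, Rgs11, Bhlhe41, Mmp12, Ccl25, Cxcl16, Cxcr5, Csf1r and Cd247. Acsl3, Ctsd, Itgam, Jak3, Psmd1, Ticam2 and Clec9a share exon sequence with a gene on their own strand, and further overlaps are given beside the gene.

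The largest falls included feedback genes of TGF-beta and BMP signalling. Pmepa1, a TGF-beta-induced inhibitor of SMAD signalling, stood at 57.5, 51.1 and 55.3 CPM in the untreated libraries and at 1.53, 1.46 and 1.26 CPM in the treated ones (-5.26 ± 0.16, adjusted p = 1.34e-14). Itsn1, the gene of an endocytic scaffold, went from 17.9, 13.4 and 14.2 CPM to 0.0958, 0.454 and 0 CPM (-6.35 ± 0.65, adjusted p = 4.58e-06). Both were ranked for their fall, so the gap between their groups was set by the choice. Olfml3, a secreted olfactomedin-like protein gene, changed by -3.95 ± 0.21, Ocstamp, which takes part in the fusion of osteoclast precursors, by -3.82 ± 0.26, Gadd45g, a stress sensor gene, by -3.70 ± 0.19, and Trib1, a relative of Trib3, by -2.95 ± 0.16. Dmpk, the myotonic dystrophy protein kinase gene, fell from 152 ± 5.83 to 16.2 ± 2.07 CPM and was the most abundant of the 15 genes ranked for their fall.

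For 3 of the strongest falls the treated libraries held no count at all. Exosc6, a subunit of the RNA exosome, had 1834 counts over the untreated libraries and 0 over the treated ones, at least 599-fold lower against a floor of 3 counts over the group. Yy2, a zinc finger gene derived from a retroposed Yy1 copy, had 345 counts and 0, at least 113-fold lower. Gbp9, of the guanylate-binding proteins, had 137 counts and 0, at least 44.8-fold lower. Each of the 3 shares exon sequence on its own strand with another gene: Exosc6 with Aars, Yy2 with Mbtps2, and Gbp9 with Gbp8 and Gbp4. Aars and Gbp8 both rose, and counts in such pairs depend on how shared reads were assigned, so these 3 values, that of Gbp8 (4.04 ± 0.25) and that of Ube2v1 (-4.65 ± 1.05), which overlaps Gm20431, are uncertain.

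The genes of the ATF4 amino acid response rose together. Of 25 tested, 22 rose, 18 of them at least 2-fold, and 0 fell, with a median log2 fold change of 1.99 against 0.01 over all genes. Chac1, which encodes an enzyme that degrades glutathione, was at 4.59, 5.47 and 4.97 CPM in the untreated libraries and 38.6, 39.2 and 43.4 CPM in the treated ones (3.01 ± 0.10, adjusted p = 1.69e-18). Sesn2, a leucine sensor that restrains the kinase complex mTORC1, went from 11.1, 11.4 and 12.4 CPM to 72.8, 82 and 86.3 CPM (2.79 ± 0.07), and the glycine transporter gene Slc6a9 from 7.03, 7.44 and 6.71 CPM to 45.2, 42.7 and 47.1 CPM (2.67 ± 0.09). The treated libraries were far above the untreated ones in all 3. Aldh1l2, a mitochondrial folate enzyme gene, changed by 3.63 ± 0.20, the amino acid transporter gene Slc1a4 by 3.54 ± 0.12, Stc2 by 3.29 ± 0.15, Nupr1 by 2.74 ± 0.13, asparagine synthetase (Asns) by 1.85 ± 0.09 and Atf4 itself by 1.33 ± 0.06. These 6 were named after their values were seen. The 3 members that did not pass were Cebpb, Slc1a5 and the cystine transporter gene Slc7a11, which stood at 125 ± 6.90 and 123 ± 6.07 CPM (-0.02 ± 0.24, adjusted p = 0.934).

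Promoter sequences of 4 of these genes are shown because they hold the composite site that C/EBP and ATF4 proteins bind and because 1 of the 4 genes did not pass the test. Each line is 80 bases of the RefSeq promoter on GRCm38.p6, read 5′ to 3′ on the gene's strand, with matches to TGATGNAA on either strand in capitals. The windows are chr2:119351013-119351092 (plus strand) for Chac1, chr7:126625537-126625616 (minus) for Nupr1, chr1:191183400-191183479 (minus) for Atf3 and chr3:50443636-50443715 (minus) for Slc7a11.
Chac1: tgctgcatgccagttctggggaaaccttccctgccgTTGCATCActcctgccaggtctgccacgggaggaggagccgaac
Nupr1: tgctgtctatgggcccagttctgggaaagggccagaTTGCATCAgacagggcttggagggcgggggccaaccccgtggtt
Atf3: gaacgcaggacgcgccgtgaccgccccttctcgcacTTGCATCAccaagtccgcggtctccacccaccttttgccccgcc
Slc7a11: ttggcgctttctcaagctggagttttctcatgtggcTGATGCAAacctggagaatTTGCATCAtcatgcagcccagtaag
The match begins 193 bases before the start site in Chac1 and 110 in Nupr1 and in Atf3, and Slc7a11 has 2 matches. Among the ATF4 list 7 of the 21 genes with a RefSeq promoter had a match in the 300 bases around the start site (33.3%), and among the synthetase genes below 5 of 16 (31.2%), against 2.9% of 9623 tested genes. The motif, like those below, was chosen after the values were seen. A match describes the sequence only, and Slc7a11 shows that genes with matches did not all move.

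**Figure D2:**
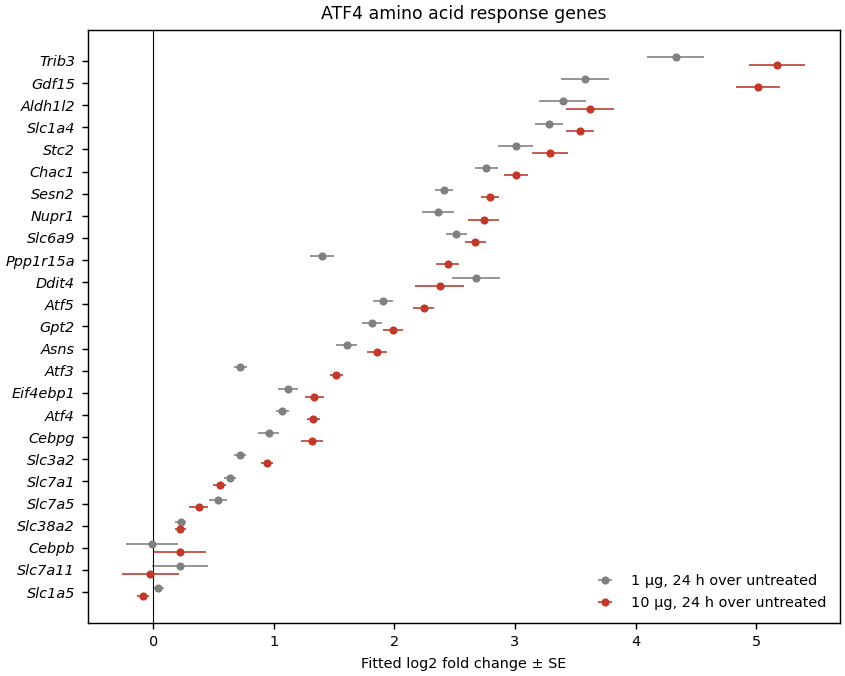
Fitted log2 fold change ± SE of the 25 tested ATF4 amino acid response genes at 24 h, with 10 µg LCCL (red) and 1 µg (grey), each over the same 3 untreated libraries. At 10 µg the values run from 5.18 for Trib3 down to -0.09 for Slc1a5, and the red points lie to the right of the grey ones for most genes.

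Genes of tRNA charging and folate metabolism were split. Of 23 tested aminoacyl-tRNA synthetase genes, which charge tRNAs for translation, 16 rose and 7 fell (median 0.39). Cysteinyl-tRNA synthetase (Cars) rose from 54.5 ± 1.19 to 114 ± 6.36 CPM (1.07 ± 0.06), and Lars, Rars, Eprs and Iars changed by 0.88 ± 0.05, 0.91 ± 0.06, 0.81 ± 0.06 and 0.74 ± 0.05. Of 23 serine and folate one-carbon enzymes 12 rose and 9 fell (median 0.20). The mitochondrial enzyme gene Mthfd2 rose from 123 ± 3.41 to 271 ± 3.98 CPM (1.14 ± 0.05). The cytosolic enzyme gene Mthfd1 changed by -1.20 ± 0.06 and the glycine cleavage gene Gcsh by -1.25 ± 0.05.

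The cholesterol exporters rose strongly. Abca1, the transporter that loads cholesterol onto apolipoprotein, stood at 4.44, 5.61 and 5.91 CPM in the untreated libraries and 73, 83.6 and 79.1 CPM in the treated ones (3.88 ± 0.10, adjusted p = 4.44e-20). Abcg1, which passes cholesterol to lipoprotein particles, went from 42.5, 45.1 and 52.8 CPM to 234, 253 and 251 CPM (2.40 ± 0.06). The groups were far apart in both. Of 15 tested targets of the oxysterol receptor LXR, 10 rose and 3 fell (median 0.49): the desaturase Scd1 changed by 1.35 ± 0.07 and the phospholipid transfer protein gene Pltp by 1.10 ± 0.08, while lipoprotein lipase (Lpl) fell from 2489 ± 59.8 to 1405 ± 26.6 CPM (-0.82 ± 0.06). Of 31 fatty acid synthesis and lipid storage genes 16 rose and 12 fell (median 0.22), with the lipid droplet coat gene Plin2 at 0.95 ± 0.05, the acyl-CoA ligase genes Acsl3 at 0.80 ± 0.05 and Acsl5 at -1.13 ± 0.07, and the fatty acid receptor gene Cd36 falling from 151 ± 15 to 53.5 ± 2.99 CPM. Among 28 cholesterol synthesis and uptake genes 5 rose and 14 fell (median -0.12). The synthetic enzymes Hsd17b7 and Idi1 changed by -1.26 ± 0.06 and -1.07 ± 0.06, and the lysosomal cholesterol carrier Npc2 and the synthesis brake Insig2 by 0.60 ± 0.05 and 0.71 ± 0.06. A perfect DR4 repeat, the LXR motif, was found in 0 of 9 promoters of the list and in 0% of all tested promoters, which says only that these letters were not in the windows.

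Lysosomal genes rose as a group, by modest amounts. Of 60 tested genes of lysosomal enzymes and the proton pump 48 rose and 1 fell (median 0.51), 6 of them at least 2-fold. Atp6v0d2, a proton pump subunit of macrophages and osteoclasts, stood at 43.8, 45.5 and 43.8 CPM and 153, 168 and 158 CPM (1.85 ± 0.06, adjusted p = 1.65e-18). The pump subunit Atp6v0a1 rose from 105 ± 0.513 to 234 ± 8.29 CPM, the alpha-galactosidase gene Gla from 85.2 ± 1.25 to 165 ± 11.4 CPM, Naglu, which degrades heparan sulfate, from 93.4 ± 5.90 to 193 ± 14.1 CPM and Idua, of the same pathway, from 32.7 ± 2.54 to 75.3 ± 3.90 CPM. The protease gene Ctsd, named after its values were seen, was at 2288, 2299 and 2259 CPM and 3302, 3661 and 3893 CPM (0.67 ± 0.06). Of 41 autophagy genes 30 rose and 1 fell (median 0.54). Sqstm1, the receptor p62 that brings cargo to autophagosomes, went from 742, 746 and 694 CPM to 1475, 1692 and 1712 CPM (1.16 ± 0.07), and the receptor genes Calcoco1 and Nbr1, the lipid transfer gene Atg2a and the folliculin partner Fnip2 changed by 1.81 ± 0.08, 0.85 ± 0.05, 0.88 ± 0.06 and 0.76 ± 0.05. No treated library overlapped an untreated one in any of these genes, a trait not compared with its share over all genes. Idua overlaps Dgkq and Slc26a1, and Sqstm1 overlaps Mrnip.

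The promoters of Gla and Ctsd are shown because they carry TCACGTGA, the core of the CLEAR element bound by TFEB, in capitals. The windows are chrX:134601176-134601255 (minus strand) and chr7:142387883-142387962 (minus), on the same build and in the same form as above.
Gla: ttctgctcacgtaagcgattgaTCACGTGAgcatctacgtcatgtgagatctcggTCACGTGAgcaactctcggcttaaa
Ctsd: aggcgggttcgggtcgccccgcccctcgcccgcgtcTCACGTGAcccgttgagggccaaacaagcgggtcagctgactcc
Matches were found in 7 of 47 lysosomal promoters (14.9%) and 1 of 35 autophagy promoters, against 2.1% of tested genes.

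Antioxidant and chaperone genes were mostly lower. Of 25 tested NRF2 antioxidant and glutathione genes 3 rose and 19 fell (median -0.66): the glutathione synthesis genes Gclm and Gclc fell from 781 ± 34.2 to 422 ± 12.2 and from 207 ± 8.25 to 79.3 ± 2.86 CPM, and glutathione reductase (Gsr) changed by -1.32 ± 0.07. Sqstm1, also a target of NRF2, was among the 3 that rose. Of 28 heat shock and chaperonin genes 3 rose and 22 fell (median -0.56), with Hspa8 at 1351, 1295 and 1396 CPM and 545, 561 and 558 CPM (-1.28 ± 0.05). Hsp90aa1, Hsph1, Cct6a and Bag3 changed by -1.08 ± 0.05, -1.29 ± 0.06, -0.91 ± 0.05 and -0.94 ± 0.06. Of 27 unfolded protein response genes 8 rose and 15 fell (median -0.29): the endoplasmic reticulum chaperone genes Calr, Pdia3 and Dnajb11 changed by -1.61 ± 0.08, -0.93 ± 0.06 and -0.93 ± 0.06, whereas the stress sensor kinase gene Ern1 rose from 41.8 ± 3.36 to 196 ± 13.8 CPM and Ppp1r15a, a phosphatase subunit induced by ATF4, from 30.4 ± 1.39 to 165 ± 22.5 CPM.

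Of 24 tested hypoxia response genes 17 rose and 4 fell (median 0.61). Vegfa, the vascular growth factor gene, was at 17.4, 14.6 and 15.6 CPM and 83.6, 91.9 and 88.5 CPM (2.47 ± 0.07, adjusted p = 3.61e-19), and Bnip3l, Ero1a, Ddit4 and Bhlhe40 changed by 1.19 ± 0.06, 0.85 ± 0.06, 2.38 ± 0.20 and 0.74 ± 0.07. The glycolysis genes, some of which hypoxia induces, were split, with 8 of 25 higher and 15 lower (median -0.20). Hexokinase 3 (Hk3), enolase 2 (Eno2) and Aldoc changed by 1.51 ± 0.05, 1.88 ± 0.07 and 0.78 ± 0.05, while Ldha, which makes lactate, fell from 791 ± 14.4 to 424 ± 20.5 CPM and the lactate carrier gene Slc16a1 from 286 ± 2.08 to 100.4 ± 1.72 CPM. Among 17 iron and metal genes 7 rose and 7 fell, and their median changed sign with upper-quartile scaling (-0.08 with TMM, 0.03 with upper quartile). The transferrin receptor gene Tfrc fell from 821, 781 and 776 CPM to 210.4, 205 and 204 CPM (-1.94 ± 0.07) and the ferritin light chain gene Ftl1 by -0.58 ± 0.07, while the iron importer gene Slc11a2 and the ferritin autophagy receptor gene Ncoa4 changed by 0.91 ± 0.05 and 0.41 ± 0.05.

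Proliferation genes fell almost without exception. Of 58 tested DNA replication genes 57 fell and 0 rose (median -1.31), 43 of them at least 2-fold, and of 69 mitosis and G2/M genes 69 fell (median -0.91). Cdc6, which loads the replicative helicase, stood at 48.1, 48.6 and 48.5 CPM in the untreated libraries and 10.6, 9.33 and 10.1 CPM in the treated ones (-2.27 ± 0.08, adjusted p = 8.56e-18). The helicase subunit gene Mcm6, named after its values were seen, went from 308, 316 and 310.3 CPM to 66.7, 53 and 62.6 CPM (-2.36 ± 0.10). Both groups were tight and far apart. The helicase gene Mcm3, the single-strand binding protein gene Rpa1, the histone chaperone gene Chaf1a and the ribonucleotide reductase gene Rrm1 changed by -1.79 ± 0.06, -1.44 ± 0.05, -1.79 ± 0.06 and -1.75 ± 0.06. Among mitosis genes the kinases Cdk1 and Aurkb, cyclin A2 (Ccna2), Top2a and survivin (Birc5) changed by -1.42 ± 0.07, -1.25 ± 0.05, -1.34 ± 0.06, -1.12 ± 0.05 and -1.21 ± 0.06.

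Of 27 G1 cyclin, CDK inhibitor and E2F genes 4 rose and 20 fell (median -0.73). Cyclin E2 (Ccne2), which drives entry into S phase, was at 58.7, 60.8 and 58.2 CPM and 7.76, 5.09 and 5.92 CPM (-3.24 ± 0.16), and cyclin D1 (Ccnd1) fell from 1007 ± 8.86 to 364 ± 26.7 CPM. Cdc25a, E2f8, Rbl1 and Tfdp1 changed by -1.66 ± 0.06, -1.62 ± 0.07, -1.13 ± 0.05 and -1.24 ± 0.06. The inhibitor gene Cdkn1b rose by 0.48 ± 0.05 and Cdkn1a did not pass (-0.08 ± 0.06, adjusted p = 0.237); both were named after their values were seen. Of 27 p53 target and growth arrest genes 12 rose and 8 fell (median 0.09), with the death gene Bbc3 rising from 21 ± 1.20 to 105 ± 11.6 CPM, while Aen and Ei24 changed by -0.92 ± 0.06 and -0.66 ± 0.06. Of 26 BCL2 family and caspase genes 10 rose and 10 fell, with a median that changed sign under upper-quartile scaling (-0.06 to 0.05), and the survival gene Bcl2 at 1.30 ± 0.07. Among 25 tested replication-dependent histone genes, whose transcripts mostly lack the poly(A) tail that these libraries select, 9 rose and 2 fell (median 0.47). H3c14, H4c14, H3c15, H2bc21 and H2ac18 changed by 2.38 ± 0.20, 3.99 ± 0.49, 2.32 ± 0.33, 0.96 ± 0.13 and 1.65 ± 0.24, and such near-identical copies are uncertain.

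Promoters of Mcm6 and Cdc6 are shown for their matches to the E2F sites TTTGGCGC and TTTCCCGC, in capitals, on either strand. The windows are chr1:128359772-128359851 (minus strand) and chr11:98907977-98908056 (plus).
Mcm6: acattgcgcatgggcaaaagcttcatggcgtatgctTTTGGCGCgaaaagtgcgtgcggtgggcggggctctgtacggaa
Cdc6: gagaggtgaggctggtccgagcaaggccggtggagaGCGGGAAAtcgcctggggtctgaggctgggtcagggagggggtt
Each of the 2 motifs was found in 8 of 47 replication promoters (17%), against 1.08% and 2.39% of tested genes. TTTGAA, the core of the cell cycle element CHR, was in 40 of 57 mitosis promoters (70.2%) against 14.9%.

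Genes of ribosome biogenesis, translation initiation, the proteasome and splicing were mostly lower too. Of 58 tested ribosome biogenesis genes 54 fell and 1 rose (median -0.73): the pseudouridine synthase gene Dkc1 went from 140.4, 143 and 132 CPM to 48, 47.4 and 48.1 CPM (-1.53 ± 0.05), and Nop58, Nolc1, Nop16 and Ubtf changed by -1.06 ± 0.04, -1.33 ± 0.06, -1.19 ± 0.06 and -1.05 ± 0.05. The MYC-type E-box CACGTG was in 12 of 51 of these promoters, against 11.6% of tested genes. The ribosomal proteins themselves hardly moved, with 8 of 80 higher and 25 lower and a median of -0.07 that became 0.05 with upper-quartile scaling, when 21 were higher and 15 lower. Rps27l, Rps12, Rpl12, Rpl27 and Rps21 changed by -0.55 ± 0.07, -0.86 ± 0.12, -0.46 ± 0.07, -0.46 ± 0.07 and -1.23 ± 0.18, and reads of this family can be split with its many pseudogenes. Of 42 translation initiation factor genes 9 rose and 26 fell (median -0.23), with Eif4g1, Eif5a, Eif3b, Eif2s1 and Eif1ax at -0.97 ± 0.05, -1.05 ± 0.05, -1.0 ± 0.06, -0.69 ± 0.05 and -0.89 ± 0.06. Of 47 proteasome genes 4 rose and 37 fell (median -0.50), with Psmd7, Psmd1, Psme3, Psmd13 and Psmd3 at -1.01 ± 0.05, -1.0 ± 0.05, -0.92 ± 0.05, -0.75 ± 0.05 and -1.12 ± 0.07. Of 34 splicing factor genes 4 rose and 28 fell (median -0.51), and Hnrnpab fell from 1027 ± 22.1 to 359.7 ± 25.2 CPM, with Hnrnpd, Srsf2, Srsf7 and Ptbp1 at -0.95 ± 0.05, -0.87 ± 0.05, -0.80 ± 0.05 and -0.86 ± 0.06.

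Energy metabolism genes were mostly lower. All but 1 of the 11 pentose phosphate genes fell (median -0.93), among them G6pdx, the entry enzyme that makes NADPH, from 357, 328 and 345 CPM to 144, 135 and 147 CPM (-1.27 ± 0.07), and Taldo1, Prps1, Prps2 and H6pd at -0.93 ± 0.05, -0.94 ± 0.06, -1.14 ± 0.06 and -0.85 ± 0.06. G6pdx overlaps Ikbkg. Of 75 nuclear oxidative phosphorylation genes 5 rose and 45 fell (median -0.24), with Atp5g3, Cycs, Cyc1, Sdhd and Uqcrq at -0.99 ± 0.05, -0.92 ± 0.07, -0.58 ± 0.05, -0.67 ± 0.05 and 0.72 ± 0.07. Of 78 mitochondrial ribosomal protein genes 3 rose and 53 fell (median -0.30), with Mrpl18, Mrpl12, Mrpl49, Mrpl51 and Mrpl19 at -1.48 ± 0.09, -1.06 ± 0.06, -1.06 ± 0.06, -0.96 ± 0.05 and 0.85 ± 0.06. Of 28 citric acid cycle genes 6 rose and 16 fell (median -0.18), with Idh3a, Idh2, Mdh2 and the pyruvate dehydrogenase kinase gene Pdk2 at -1.05 ± 0.06, -0.58 ± 0.05, -0.60 ± 0.05 and 1.70 ± 0.17. For the 13 mitochondrially encoded transcripts the direction depended on scaling, with 0 higher and 4 lower by TMM and 4 higher and 3 lower by upper quartile (median -0.10 and 0.02). mt-Nd1, mt-Nd2, mt-Nd3 and mt-Cytb changed by -0.50 ± 0.05, -0.33 ± 0.05, -0.36 ± 0.05 and -0.16 ± 0.05, and mt-Co2 did not pass (-0.11 ± 0.05, adjusted p = 0.0679), though it did with DESeq2 (adjusted p = 0.0174) and limma-voom (adjusted p = 0.0455).

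**Figure D3:**
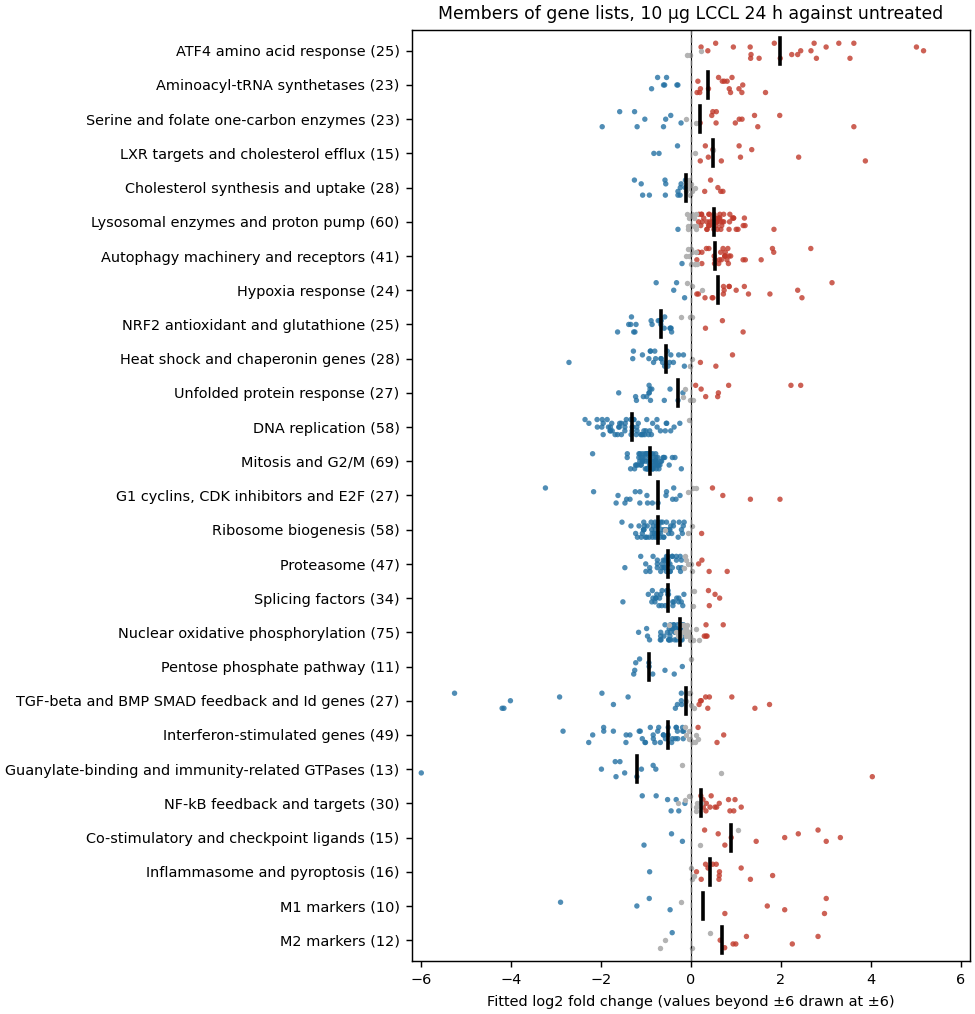
Fitted log2 fold change of every tested member (points) of 27 gene lists, 10 µg LCCL 24 h over untreated, with the number tested in brackets. Black bars are list medians, the dashed line is the median of all genes (0.01), red and blue points passed at an adjusted p under 0.05 and grey ones did not; replication (median -1.31) and mitosis (-0.91) genes sit to the left of 0 and ATF4 response genes (1.99) to the right.

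The Id genes, targets of BMP signalling that hold back differentiation, fell strongly. Id1 stood at 34.4, 30.8 and 34.2 CPM in the untreated libraries and 2.30, 1.77 and 1.31 CPM in the treated ones (-4.20 ± 0.14, adjusted p = 2.78e-17), Id3 went from 116, 112 and 106 CPM to 8.24, 5.55 and 6.75 CPM (-4.02 ± 0.13), and Id2 from 149, 139.7 and 141 CPM to 44, 43.6 and 42.2 CPM (-1.72 ± 0.05). The groups were apart in all 3. The inhibitory gene Smad6 fell from 36.4 ± 0.594 to 4.78 ± 1.28 CPM (-2.92 ± 0.11), the repressor gene Skil changed by -1.40 ± 0.06 and Tgif1 by 0.91 ± 0.05. The whole list of 27 SMAD feedback and Id genes was split, with 9 higher and 13 lower, and its median changed sign with upper-quartile scaling (-0.11 to 0.01).

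Inflammatory activation genes moved in both directions. Of the 16 core activation genes fixed for naming, 10 could be tested. Nos2, the inducible nitric oxide synthase of classical activation, had 5 counts in the untreated libraries together and 41 in the treated ones (2.97 ± 0.70, adjusted p = 0.000522), a level under 1 CPM in every library. Cd86 rose from 0.634, 0.593 and 0.149 CPM to 3.55, 3.83 and 3.93 CPM (3.01 ± 0.33, adjusted p = 9.72e-09), and Cd40, the receptor through which T cells activate macrophages, from 1.32, 1.96 and 1.84 CPM to 5.89, 8.62 and 7.33 CPM (2.09 ± 0.22, adjusted p = 8.39e-09). Cxcl10, a chemokine gene induced by interferon, fell from 12.5, 12.5 and 12.8 CPM to 1.68, 2.02 and 1.36 CPM (-2.90 ± 0.16, adjusted p = 1.87e-14). So the co-stimulatory genes and the chemokine gene moved in opposite directions, each with its groups apart. Cxcl10 overlaps Art3 on the other strand.

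The cytokine gene Tnf fell from 101, 99 and 100.3 CPM to 74.5, 72.1 and 71 CPM (-0.46 ± 0.14, adjusted p = 0.0136), and the interleukin 1 antagonist gene Il1rn from 121, 116 and 117 CPM to 85.2, 70.6 and 76.3 CPM (-0.61 ± 0.16, adjusted p = 0.00589). Tnf had an adjusted p of 0.0512 with upper-quartile scaling. Ptgs2, inducible cyclooxygenase, fell by -1.20 ± 0.44 (adjusted p = 0.0306), and this call was lost without untreated replicate 1, 2 or 3 or treated replicate 2 or 3, each left out alone (adjusted p = 0.057, 0.0602, 0.0609, 0.0732 and 0.0927). Mrc1, the mannose receptor of alternative activation, rose from 1.07 ± 0.0736 to 2.06 ± 0.281 CPM (0.94 ± 0.28), whereas Arg1 (-0.68 ± 0.37, adjusted p = 0.105) and Acod1 (-0.22 ± 0.32, adjusted p = 0.562) did not pass. The other 6 were too low to test. Il10, of an anti-inflammatory cytokine, had 20 counts in the untreated libraries and 0 in the treated ones, at least 6.53-fold lower, Il1b had 7 and 4 counts, Il6 1 and 0, and Il12b, Retnla and Chil3 had 0 in all 6 libraries. At these depths a floor of 3 counts is 0.137 to 0.151 CPM in a library.

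Of 10 tested M1 markers 5 rose and 4 fell (median 0.27), with the lineage factor gene Irf5 at -0.93 ± 0.05 and Cd80 at 0.75 ± 0.09 beside those above. Of 12 M2 markers 7 rose and 1 fell (median 0.70). The transcription factor gene Klf4 went from 15.8, 12.5 and 14.5 CPM to 59.5, 72.4 and 72.3 CPM (2.26 ± 0.14), the beta-glucan receptor gene Clec7a from 38.9, 41.8 and 37.6 CPM to 86, 99.8 and 92.9 CPM (1.23 ± 0.06), and Clec10a changed by 0.65 ± 0.13. The scavenger receptor gene Msr1 fell by -0.42 ± 0.06. Pdcd1lg2, a checkpoint ligand, rose from 0.0977 ± 0.0875 to 0.721 ± 0.207 CPM.

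Co-stimulatory and checkpoint genes were mostly higher, with 10 of 15 up and 3 down (median 0.90). Cd274, the checkpoint ligand PD-L1, stood at 9.17, 10.3 and 8.30 CPM and 42.4, 52.1 and 51.3 CPM (2.39 ± 0.13, adjusted p = 1.41e-11), Cd83 rose from 37 ± 0.911 to 101 ± 6.25 CPM, Slamf7 from 0.421 ± 0.281 to 4.23 ± 0.64 CPM and Tnfsf9 from 40.2 ± 2.76 to 74.7 ± 1.35 CPM. Havcr2, the inhibitory receptor TIM-3, fell from 97.1 ± 5.04 to 47.1 ± 3.49 CPM. Of 22 class I presentation genes 12 rose and 7 fell (median 0.33), with H2-T23, H2-K1 and H2-D1 at 0.91 ± 0.07, 0.44 ± 0.05 and 0.45 ± 0.05. Of 10 class II genes 5 rose and 3 fell (median 0.26), with the invariant chain Cd74 at 1.12 ± 0.07, Ctss at 0.41 ± 0.05, and the regulators Rfx5, Rfxank and Rfxap at 0.48 ± 0.06, 0.54 ± 0.12 and -0.47 ± 0.12.

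Interferon-stimulated genes fell. Of 49 tested 37 fell and 3 rose (median -0.51), 14 of them at least 2-fold lower. Ifit1, which binds foreign RNA, stood at 24.1, 22.9 and 25.3 CPM in the untreated libraries and 5.94, 4.94 and 4.03 CPM in the treated ones (-2.27 ± 0.11, adjusted p = 2.54e-15), and Ifit3 fell from 17.7 ± 1.54 to 3.88 ± 0.172 CPM. Eif2ak2, the kinase PKR, Oasl1 and Rtp4 changed by -1.13 ± 0.06, -1.15 ± 0.06 and -1.01 ± 0.06, and Isg15, named after its values were seen, by -1.02 ± 0.09. Of 13 guanylate-binding and immunity-related GTPase genes 10 fell and 1, Gbp8, rose (median -1.20), with Irgm1 falling from 136 ± 12.1 to 63.5 ± 2.0 CPM and Irgm2 and Igtp, which share exon sequence, at -0.84 ± 0.07 and -1.68 ± 0.15.

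Promoters of Ifit1 and Isg15 are shown for their interferon-stimulated response elements (ISRE), on either strand, in capitals; the 3 matches of Isg15 overlap. The windows are chr19:34640750-34640829 (plus strand) and chr4:156200852-156200931 (minus).
Ifit1: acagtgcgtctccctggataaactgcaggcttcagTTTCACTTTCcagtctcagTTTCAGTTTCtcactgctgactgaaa
Isg15: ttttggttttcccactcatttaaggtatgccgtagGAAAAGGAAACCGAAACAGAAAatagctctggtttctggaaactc
The motif was in 17 of 37 interferon-stimulated promoters (45.9%) against 3.96% of tested genes.

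Of 22 tested Toll-like receptor and adaptor genes 13 rose and 8 fell (median 0.24). Tlr2 fell from 386 ± 21.7 to 201 ± 3.60 CPM and the co-receptor gene Cd14 from 2036 ± 72.5 to 1093 ± 42.4 CPM, while Tlr1, Irak2 and the adaptor gene Ticam2 changed by 0.79 ± 0.09, 1.07 ± 0.05 and 2.28 ± 0.16; Ticam2 shares sequence with Tmed7 on its strand. Among 30 genes of NF-kB targets and feedback 15 rose and 7 fell (median 0.22), with Tnfaip2, Relb, Birc3, Nfkbiz and Cd44 at 1.12 ± 0.06, 0.98 ± 0.07, 0.87 ± 0.06, 0.84 ± 0.08 and -0.52 ± 0.05. Of 13 nucleic acid and NOD sensor genes 6 rose and 5 fell (median 0.08): the DNA sensor gene Cgas fell from 129, 128 and 129.6 CPM to 51.1, 50.6 and 48 CPM (-1.37 ± 0.07), Zbp1 and Dhx58 changed by -1.45 ± 0.15 and -0.84 ± 0.06, and Nod2 and Aim2 by 1.30 ± 0.11 and 0.48 ± 0.05. Of 16 inflammasome genes 12 rose and 1, the sensor gene Nlrp3, fell (-0.92 ± 0.06), with a median of 0.43. Txnip rose from 354 ± 12.9 to 886 ± 84.9 CPM and Casp4, the receptor of cytosolic endotoxin, from 18.2 ± 1.97 to 64.4 ± 7.91 CPM. Naip5 and Naip2, related copies of 1 gene family, changed by 1.12 ± 0.08 and 0.63 ± 0.06.

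Of 15 tested inflammatory cytokine genes 6 rose and 4 fell (median 0.32), with Osm, Il15 and Mif at 1.02 ± 0.15, 0.68 ± 0.11 and -0.37 ± 0.05 and Tnfsf10 falling from 0.722 ± 0.0739 to 0.0641 ± 0.0731 CPM. Of 10 chemokine genes 2 rose and 4 fell (median 0.01): the neutrophil attractant gene Cxcl2 rose from 5.36 ± 0.689 to 18.3 ± 2.57 CPM and Ccl25 by 0.45 ± 0.08, and Ccl2 and Cxcl16 changed by -2.90 ± 0.45 and -0.47 ± 0.08. Of 9 chemokine receptor genes 4 rose and 2 fell (median 0.48). Cx3cr1, the fractalkine receptor of monocytes and resident macrophages, fell from 503, 489 and 509.9 CPM to 128, 101 and 107 CPM (-2.16 ± 0.13, adjusted p = 2.49e-08). Ccrl2 rose from 1.16 ± 0.205 to 7.36 ± 0.911 CPM, and Ccr2, Cxcr4 and Cxcr5 by 1.59 ± 0.17, 1.13 ± 0.15 and 0.78 ± 0.10.

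Genes of surface receptors, complement and proteases moved in both directions. Of 19 phagocytic, Fc and scavenger receptor genes 8 rose and 5 fell (median 0.11): the inhibitory receptor gene Fcgr2b went from 59.8, 62.3 and 57 CPM to 163, 165 and 169 CPM (1.47 ± 0.05), and Cd93, Fcgr3 and Fcgr4 changed by 2.21 ± 0.15, 0.90 ± 0.07 and 1.63 ± 0.14. Of 14 integrin genes 6 rose and 6 fell (median 0.11), Itgav from 181 ± 2.24 to 62.1 ± 4.58 CPM, Itga5 and Itgal by -0.95 ± 0.05 and -0.84 ± 0.06, and Itgax and Itgam by 1.45 ± 0.08 and 0.37 ± 0.05. Of 15 C-type lectin genes 6 rose and 4 fell (median 0.25), with Clec5a, Clec4a2 and Clec12a at -0.70 ± 0.05, -1.15 ± 0.09 and 0.56 ± 0.06. Of 14 complement genes 9 rose and 3 fell (median 0.39); C3, the central component, rose from 5.29 ± 0.13 to 23.5 ± 2.11 CPM, and properdin (Cfp) and Cr1l changed by -0.62 ± 0.05 and 0.41 ± 0.06. Of 18 matrix protease and inhibitor genes 8 rose and 7 fell (median 0.23), with Timp2, Mmp12, Adam8, Adam10 and Plaur at 0.86 ± 0.07, 1.30 ± 0.11, -1.01 ± 0.07, -0.48 ± 0.05 and -1.02 ± 0.09.

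Genes of osteoclast differentiation, a fate open to this line, moved in both directions. Of 20 tested 8 rose and 7 fell (median 0.13). Nfatc1, the master regulator, fell from 252, 229 and 247 CPM to 97.8, 84.2 and 85.2 CPM (-1.44 ± 0.06), the RANK receptor gene Tnfrsf11a from 138 ± 1.86 to 58.8 ± 4.36 CPM and Fos from 126 ± 6.55 to 39.1 ± 1.25 CPM, while the acid-secreting genes Atp6v0d2 (above) and Clcn7 (1.05 ± 0.06) rose. Of 31 macrophage lineage factor genes 17 rose and 9 fell (median 0.22), with Bhlhe41 and Klf6 at 0.71 ± 0.05 and 0.60 ± 0.05. Of 24 immediate early and AP-1 genes 11 rose and 10 fell (median -0.20), with Atf3 at 1.52 ± 0.05, Jun at 0.57 ± 0.06 and Junb at -0.60 ± 0.05. Of 16 MAP kinase feedback genes 7 rose and 5 fell (median 0.08), with Spred3, Dusp8, Dusp2, Rasa2 and Spred2 at 1.72 ± 0.14, 3.29 ± 0.50, -1.93 ± 0.23, -0.42 ± 0.06 and -0.31 ± 0.05. Of 22 JAK-STAT genes 8 rose and 4 fell (median 0.08), with Pim1, Jak3, Tyk2 and Socs6 at 0.64 ± 0.07, 0.61 ± 0.07, 0.47 ± 0.05 and 0.48 ± 0.06. Of 11 RGS genes, which shorten G-protein signals, 7 rose and 2 fell (median 0.56), with Rgs1, Rgs2, Rgs18, Rgs11 and Rgs16 at 0.79 ± 0.05, 0.52 ± 0.05, 0.82 ± 0.09, 1.38 ± 0.16 and -2.28 ± 0.22. Of 15 eicosanoid genes 7 rose and 7 fell (median -0.14), with Hpgds, Pla2g15, Ptges3, Ptges2 and Lta4h at 0.73 ± 0.06, 1.06 ± 0.08, -1.02 ± 0.05, -0.49 ± 0.10 and 0.30 ± 0.06.

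Macrophage markers stayed abundant. Of 19 tested markers 11 rose and 5 fell (median 0.33), and the summed level of the 20 in the table was 21087 to 21751 CPM in untreated libraries and 17917 to 19725 CPM in treated ones. Ptprc, Lgals3, Fcgr1 and Adgre1, the F4/80 antigen, changed by 0.61 ± 0.05, 0.70 ± 0.05, 1.19 ± 0.11 and 0.58 ± 0.06, and Csf1r and Lyz2 by -0.77 ± 0.08 and -0.39 ± 0.06; the last 3 were named after their values were seen. Markers of other cell types were scarce. Fibroblast markers summed to 0.293 to 0.546 CPM in untreated and 0.291 to 0.857 CPM in treated libraries (6 of 9 at 0, Col1a1, Col3a1 and Dcn among them, and Pdgfrb at 0.33 ± 0.59), and epithelial markers to 0.199 to 0.39 and 0.252 to 0.862 CPM (8 of 9 at 0, Epcam and Cdh1 among them, and Muc1 at 0.93 ± 0.50).

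Some lists of other cell types held genes that moved. All 4 tested of 15 B cell markers rose, and of 4 tested among 20 T and NK markers 3 rose and 1 fell. Here, as in the lists above, a member scarce in untreated cells was tested only if another group held more. Cr2, Cd79a and Cd5 were such members, at 0.144, 0.223 and 0.287 CPM in untreated and 1.01, 0.619 and 0.768 CPM in treated libraries. Their rises were thus partly set by the filter, and these counts say nothing about the lists as wholes. Endothelial markers summed to 7.17 to 8.64 and 29.8 to 33.7 CPM, nearly all of it Vwf (2.11 ± 0.13), with 1 of 7 at 0. Neutrophil markers summed to 3.88 to 5.61 and 32.1 to 36.8 CPM through the receptor gene Csf3r, which rose from 3.22, 3.42 and 4.47 CPM to 31.1, 33.7 and 36.4 CPM (3.19 ± 0.13); Ly6g, S100a9, Mpo, Ngp and Retnlg were at 0, 5 of 12, and S100a8 changed by -1.30 ± 0.55, a call lost with DESeq2, limma-voom and upper-quartile scaling (adjusted p = 0.0511, 0.0605 and 0.061). B cell markers summed to 13.2 to 17.2 and 31.4 to 34.0 CPM (7 of 15 at 0, Ms4a1 and Cd79b among them), with Blnk, Ighm, Cr2 and Cd79a at 1.0 ± 0.10, 1.69 ± 0.23, 2.76 ± 0.50 and 1.45 ± 0.43. T and NK markers summed to 47.0 to 54.5 and 57.5 to 63.5 CPM (13 of 20 at 0, Cd3d, Cd3e and Cd3g among them), with Cd28, Lck, Cd5 and Cd247 at 2.78 ± 0.14, 1.13 ± 0.14, 1.40 ± 0.51 and -0.63 ± 0.14. Mast cell markers summed to 1.28 to 1.44 and 3.38 to 4.17 CPM (6 of 9 at 0), through Cpa3 at 0.0659 ± 0.076 and 2.05 ± 0.318 CPM, with Hdc at 0.41 ± 0.31. Dendritic cell markers summed to 66.9 to 72.0 and 53.3 to 59.9 CPM (1 of 10 at 0), with Fscn1, Bst2 and Clec9a at -2.67 ± 0.38, -0.33 ± 0.06 and 1.68 ± 0.61 and Itgae and Zbtb46 not past the test (-0.34 ± 0.23 and 0.52 ± 0.37). Erythroid and megakaryocyte markers summed to 2.24 to 2.53 and 3.11 to 4.24 CPM (4 of 10 at 0), with Itga2b at 1.23 ± 0.55 and Gp1ba at 0.46 ± 0.31. The Itga2b call was lost with DESeq2, limma-voom and no low-count filter (adjusted p = 0.0847, 0.0696 and 0.068). The part of these shifts in the results above was not tested.

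The 10 µg and 1 µg libraries at 24 h were compared directly, in the fit of all 15 libraries. The 1 µg 24 h libraries spread the most of all groups. Set against counting error, their replicate 1 differed from replicates 2 and 3 with a chi-square per degree of freedom of 13.5 and 15.2. The highest value in any other group was 7.13, at 10 µg 24 h. Here 4383 genes were called (35.3%), 1988 higher at 10 µg (16%) and 2395 lower (19.3%), 257 of them at least 2-fold (2.07%). With only the 2 dose groups fitted 3259 were called, 1620 higher and 1639 lower, and upper-quartile scaling gave 2356 higher and 2033 lower. Most lysosomal genes differed between the doses: 53 of 60 were higher at 10 µg and 2 lower (median 0.44). Atp6v0d2 was at 43.6, 42 and 49 CPM with 1 µg and at 153, 168 and 158 CPM with 10 µg (1.83 ± 0.06, adjusted p = 1.4e-17), and the 1 µg libraries overlapped the untreated ones. Ctsd, at 1933, 2186 and 2209.6 CPM with 1 µg, changed by 0.78 ± 0.06 between doses, Gla by 0.72 ± 0.05, Naglu by 0.72 ± 0.06 and Idua by 0.69 ± 0.06. Against untreated cells 7658 genes were called with 1 µg (61.8%, 30.8% higher and 31% lower). There the lysosomal list had 25 genes higher and 12 lower (median 0.04), against 48 and 1 with 10 µg (median 0.51). Both comparisons share the untreated libraries. Other lists moved with 1 µg as well: 22 of 25 ATF4 response genes rose and 0 fell (median 1.60). Lower with 1 µg were 57 of 58 replication genes (median -0.71), 66 of 69 mitosis genes (-0.45) and 36 of 49 interferon-stimulated genes (-0.36, 3 higher). Between the doses, 20 of 41 autophagy genes were higher at 10 µg and 1 lower (median 0.15), with Fnip2 at 0.80 ± 0.05 and Sqstm1 at 0.76 ± 0.06.

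Proliferation genes were lower at the higher dose as well. Of 58 replication genes 52 were lower at 10 µg and 0 higher (median -0.61), of 69 mitosis genes 66 and 0 (median -0.47), and of 27 G1 and E2F genes 22 and 0 (median -0.38). Cdc6 was at 24.1, 19.8 and 18.9 CPM with 1 µg against 10.6, 9.33 and 10.1 CPM with 10 µg (-1.06 ± 0.09, adjusted p = 5.72e-10), with no overlap. Of 25 ATF4 response genes 14 were higher at 10 µg and 1 lower (median 0.24): Gdf15 differed by 1.44 ± 0.13, Ppp1r15a by 1.05 ± 0.09 and Trib3 by 0.84 ± 0.17, while Slc6a9 did not pass (0.16 ± 0.07, adjusted p = 0.101). Of 49 interferon-stimulated genes 28 were lower and 5 higher (median -0.21). Pmepa1 (-0.20 ± 0.29, adjusted p = 0.65) and Smad6 (-0.19 ± 0.14, adjusted p = 0.288) showed no difference that passed, and Id2 was higher at 10 µg (20.5, 22 and 20.5 CPM with 1 µg, 1.04 ± 0.06).

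The 5 genes ranked for the largest rise from 1 µg to 10 µg were Dio2, which activates thyroid hormone, from 2.03, 0.691 and 1.18 to 8.91, 10.7 and 12.1 CPM (3.02 ± 0.25), Tspan10 (2.50 ± 0.21), Sdk2 (2.03 ± 0.17), the histidine-degrading enzyme gene Hal, from 9.84 ± 1.47 to 38.3 ± 3.90 CPM (1.97 ± 0.11), and Atp6v0d2. Those ranked for the largest fall were Itsn1 (-5.50 ± 0.71), Ube2v1 (-4.17 ± 1.08), Ranbp3l (-2.49 ± 0.59), Ccne2 (-1.82 ± 0.17) and Cx3cr1, which was at 489, 368 and 325 CPM with 1 µg (-1.81 ± 0.13, adjusted p = 7.51e-07). Ranbp3l did not pass against untreated cells (-1.43 ± 0.64, adjusted p = 0.0663), but it did with DESeq2, limma-voom and only the 2 groups fitted (adjusted p = 0.00895, 0.0446 and 2.05e-06). With only the 2 dose groups fitted, the dose calls of Ube2v1 and Ranbp3l were lost (adjusted p = 0.0733 and 0.12).

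**Figure D4:**
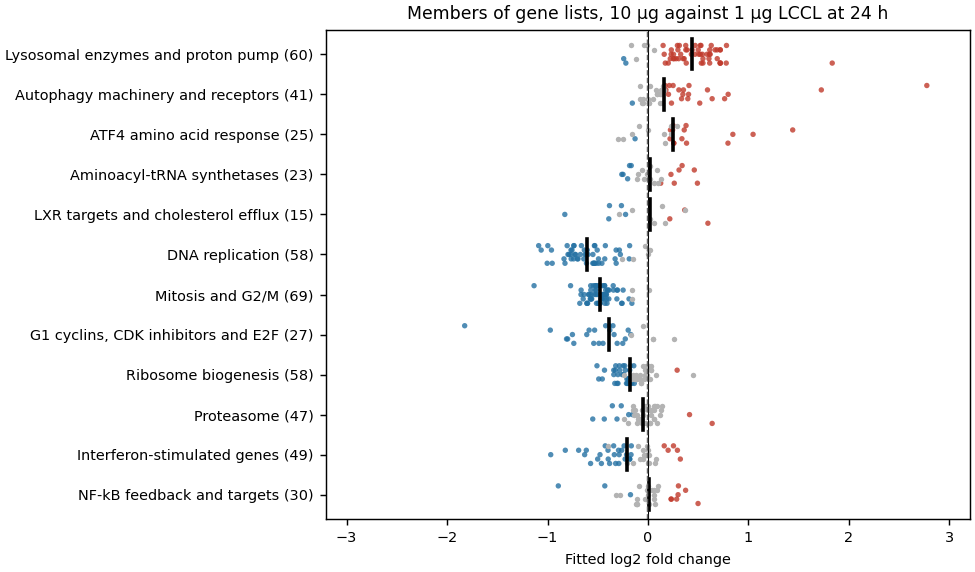
Fitted log2 fold change of every tested member of 12 gene lists between 10 µg and 1 µg LCCL at 24 h, drawn as in the plot of list members against untreated cells. Lysosomal genes (median 0.44) lie mostly to the right of 0, replication (-0.61) and mitosis (-0.47) genes to the left, and synthetase and LXR genes (both 0.02) around it.

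Against 6 h at the same dose 8579 genes were called (69.2%), 4218 higher at 24 h (34%) and 4361 lower (35.2%), and 5331 and 3388 with upper-quartile scaling. The ATF4 list had 21 of 25 members higher at 24 h and 1 lower (median 1.92), lysosomal genes 48 of 60 higher and 2 lower (median 0.46), replication genes 58 of 58 lower (median -1.19) and interferon-stimulated genes 42 of 49 lower and 3 higher (median -0.74). Against untreated cells the 10 µg 6 h libraries had 738 genes called (5.95%), 507 higher (4.09%) and 231 lower (1.86%), with 3 ATF4 genes higher, 23 interferon-stimulated genes higher and 0 lower, and 4 replication genes lower. Trib3 was at 4.36, 5.46 and 4.20 CPM at 6 h, Abca1 at 6.44, 6.48 and 6.33 CPM and Id1 at 30.9, 30.0 and 30.3 CPM, close to their untreated levels. The 5 genes ranked for the largest rise from 6 h to 24 h were Cp (6.77 ± 0.48), Cox6a2 (6.18 ± 0.64), Trib3 (5.51 ± 0.24), Extl1 (5.40 ± 0.30) and Zrsr1 (5.06 ± 0.69), and those for the fall included Exosc6, which had no count at 24 h, Pmepa1 (-6.31 ± 0.16), Itsn1 (-5.81 ± 0.69) and Olfml3 (-4.38 ± 0.20). Pmepa1 was at 115, 118 and 106 CPM at 6 h, above every untreated library, and under 3 CPM in every library at 24 h.

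**Figure D5:**
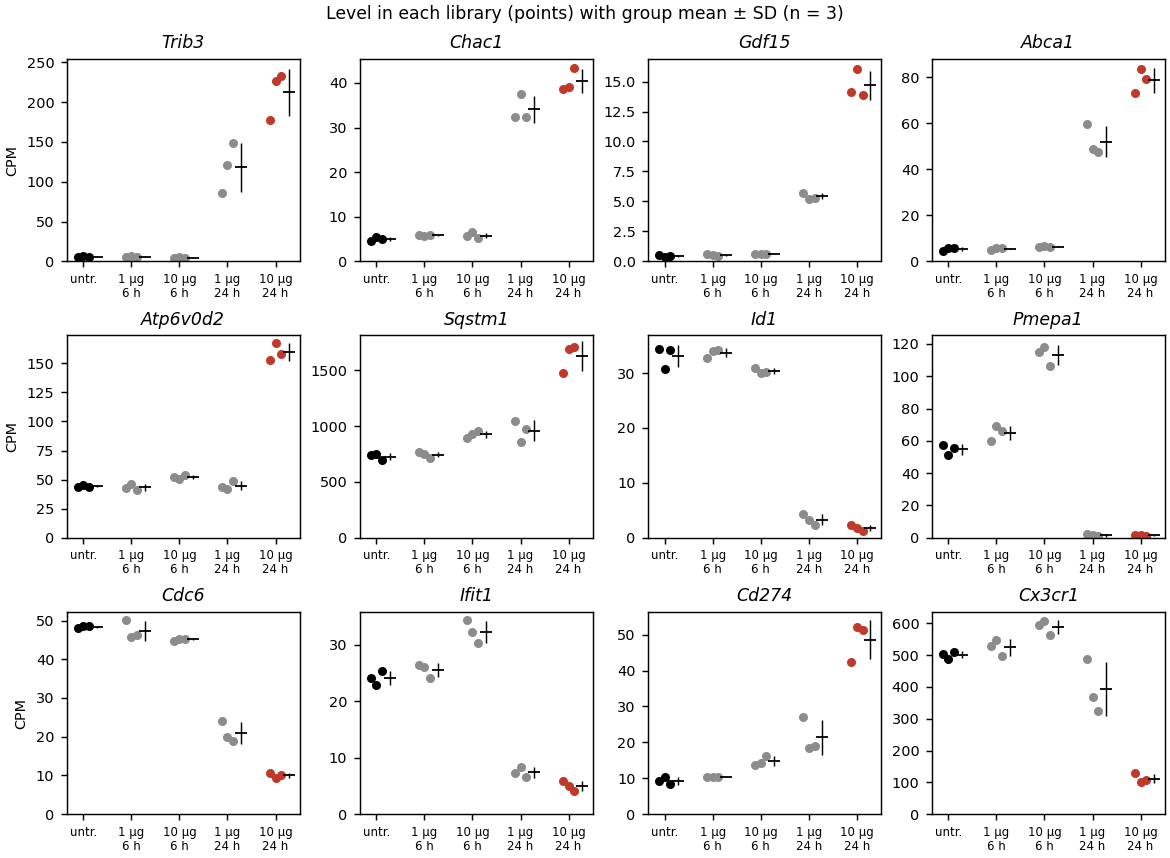
Level in CPM of 12 genes in each of the 15 libraries (points; black untreated, red 10 µg LCCL 24 h, grey other groups) with the group mean ± SD (n = 3) beside them. Trib3, Chac1, Gdf15 and Abca1 are near their untreated level at 6 h and high at 24 h, Atp6v0d2 is high only in the 10 µg 24 h group among the 5 groups (mean 159.7 CPM), and Pmepa1 and Ifit1 are higher at 10 µg 6 h than untreated and low at 24 h.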

How the data were processed

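Whole-number read counts, deposited by the authors in 1 table, give 1 row for each gene symbol and 1 column for each of the libraries. Libraries were made with a stranded mRNA kit, per the labels' protocols, and GRCm39 is the build in the submitters' processing notes. Not given in the sources used here are the aligner, counter, annotation and strand setting. Genes with low counts were removed by filterByExpr (edgeR 4.0.16, R 4.3.3), which kept 99.97% of counts. All 15 libraries were fitted together with TMM scaling and glmQLFit (robust), and each contrast was tested with glmQLFTest, two-sided, with Benjamini-Hochberg adjustment over 12401 genes. The SE is the log2 fold change over the square root of F. The test was checked on simulated counts. Alternatives used DESeq2 1.42.0, limma-voom (limma 3.58.1), other scalings and filters, a replicate block, and each library left out.

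Genes named were those called, reaching 5 CPM in the higher group and not overlapping between libraries, that ranked in the first 15 for rise or for fall (5 and 5 in the other contrasts), 16 core activation genes, and up to 5 members of each of 67 lists with the smallest p, leaving out predicted-gene and clone names. Exceptions are marked in the text, and some genes that the rule names are not reported here. The members, lists and named genes were chosen with earlier results of these data known. Lists carry no test of their own: their counts and medians stand beside those of all genes. Promoters are from RefSeq on GRCm38.p6, a build other than that of the counts, and matched 9623 tested genes by symbol. Exon overlaps are from a GENCODE annotation of GRCm38, used for names only.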

Additional observations from a re-analysis of the deposited data

Results flagged for a closer look

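For 4 of the genes screened the effect of 10 µg LCCL was called in opposite directions at 6 h and 24 h against the same untreated libraries. The 24 h and 6 h libraries, compared directly with edgeR, differed in these genes. Only genes ranked for the size of their change and core activation genes were screened for this. Opposite calls were not confined to them: of 49 interferon-stimulated genes 23 were higher at 6 h and 37 lower at 24 h, so some were called both ways. Opposite calls against the same untreated libraries make a direct difference nearly certain, so its adjusted p is no separate evidence. Pmepa1 was also ranked for its fall from 6 h to 24 h. Pmepa1 rose by 1.05 ± 0.10 at 6 h and changed by -5.26 ± 0.16 at 24 h, a difference of -6.31 on the log2 scale (adjusted p = 8.56e-16). Cxcl10 differed by -3.40 (6 h 0.50 ± 0.12, 24 h -2.90 ± 0.16, adjusted p of the difference = 8.03e-16). Tnf differed by -1.42 (6 h 0.96 ± 0.14, 24 h -0.46 ± 0.14, adjusted p = 3.06e-06) and Il1rn by -1.24 (6 h 0.63 ± 0.16, 24 h -0.61 ± 0.16, adjusted p = 3.41e-05). In each of the 4 the 6 h libraries were above the untreated ones and the 24 h libraries below.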

How the results depend on the processing

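Every count of called genes stayed within 1.5 times its main value under the 8 alternative settings and with each library left out. The comparison with untreated cells gave 8454 calls by DESeq2 (4199 higher, 4255 lower), 8702 by limma-voom, 8443 to 8646 with another filter, and 8242 to 8411 without 1 library. Over all alternatives the named genes kept direction and side of the threshold in 4659 instances against untreated cells, lost the call in 27, gained it in 9 and changed sign in 6. Those with a change of sign were mt-Co2 (0.0081), Slc7a11 (0.0899) and Cdkn1a (0.0383) with upper-quartile scaling, and, with single libraries left out, Slc7a11 (-0.0703 to 0.0097, positive without untreated replicate 1 or treated replicate 3) and Pdgfrb (-0.172 to 0.538, negative without treated replicate 2); none of these 4 genes had passed the test, and the cause was not tested. The gained calls were those of Ranbp3l (DESeq2, limma-voom, only the 2 groups fitted and the block, adjusted p = 0.00895, 0.0446, 2.05e-06 and 0.0427), mt-Co2 (DESeq2, limma-voom, without untreated or treated replicate 3, 0.0174, 0.0455, 0.0446 and 0.0458) and Muc1 (without treated replicate 2, 0.0279). Besides Ptgs2, calls were lost on leaving out single libraries for 4 genes with little RNA: S100a8 (without untreated replicates 1 or 3 or treated 1 or 2, adjusted p = 0.0966, 0.183, 0.0569 and 0.168), Clec9a (untreated 2 or 3 or treated 2, 0.0621, 0.077 and 0.0711), Cd5 (untreated 3, 0.0531) and Itga2b (adjusted p = 0.0505 to 0.207 in 5 of 6 cases). Upper-quartile scaling also ended the calls of mt-Cytb, Tnf and S100a8 (adjusted p = 0.431, 0.0512 and 0.061). DESeq2 and limma-voom ended those of S100a8 (0.0511 and 0.0605) and Itga2b (0.0847 and 0.0696), and Itga2b was also lost with no low-count filter (0.068) and with the block (0.0566).

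Replicate numbers showed no clear pairing of the libraries. Deviations from the group means of untreated and treated libraries with the same number correlated at -0.02, 0.05 and 0.01. With different numbers the values ran from -0.04 to 0.04. A weak pairing could not be detected with so few libraries. With the replicate number as a block 8630 genes were called (4333 higher, 4297 lower), 4291 between doses and 8509 between times, against 8717, 4383 and 8579 without it. At 19085148 to 22434642 counts per library, genes under about 0.15 CPM lie at the floor of 3 counts, so changes between such levels were not detectable.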
